A study of Mus musculus with 6 samples.

Results

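Annexins are proteins that bind phospholipid membranes when calcium rises. The genes described are Anxa1, Anxa2, Anxa3, Anxa4, Anxa5, Anxa6, Anxa7, Anxa8, Anxa9 and Anxa11, which are 10 of the 24083 gene symbols in the deposited expression table, and all 10 were found by symbol. They were set in cells carrying the R153A form of Nanog (3 libraries) against cells with wild-type Nanog (WT, 3 libraries), both mouse embryonic stem cells cultured with LIF and serum on gelatin-coated plates. The NANOG protein, a homeobox factor, helps to keep such cells pluripotent, and the comparison asks how R153A changes expression. The labels name the 2 forms of Nanog without saying how the R153A cells were made, or if replicates were grown separately or stem from 1 clone, so p-values measure only the spread between these libraries, which may be technical. The 10 genes were selected on their FPKM in R153A against WT, so everything given on their own difference between the groups, limma calls included, describes that choice and supports nothing. The choice names no threshold.

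Every annexin has a conserved core of repeated calcium-binding and lipid-binding domains, preceded by an N-terminal head that differs between members and binds partner proteins, among them S100 proteins. Annexins are known for organising and sealing membranes, for endocytosis and exocytosis, and some of them act outside the cell in clotting, plasminogen activation and the resolution of inflammation. Epithelial, endothelial and mesenchymal cells are rich in several of them. The longest coding sequence in GENCODE M21 ran from 319 codons (Anxa4 and Anxa5) to 346 codons (Anxa1) in 7 of the genes, each over 12 coding exons. Anxa7 had 485 codons and Anxa11 had 503, and Anxa6, whose protein carries the core again in its C-terminal part, had 673 codons over 25 coding exons.

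Promoter sequence is shown for Anxa2, Anxa1 and Anxa5, the members with the largest ratios among the 8 with an entry in the RefSeq promoter table, and for Anxa11, whose ratio was smaller. Anxa3 and Anxa6 had no entry. Each line gives the 250 bases before the annotated start, 5′ to 3′ on the gene's strand, in GRCm38.p6, which is another build than the mm9 of the expression data. The windows are chr9:69453433-69453682 (plus strand), chr19:20390672-20390921 (minus strand), chr3:36475888-36476137 (minus strand) and chr14:25841905-25842154 (plus strand). Capitals mark matches, on either strand, to the AP-1 motif with the letters TGANTCA, the TEAD motif with the letters CATTCC, the GC box with the letters GGGCGG, the CAAT box with the letters CCAAT, and the TATA box with the letters TATAAA.
Anxa2: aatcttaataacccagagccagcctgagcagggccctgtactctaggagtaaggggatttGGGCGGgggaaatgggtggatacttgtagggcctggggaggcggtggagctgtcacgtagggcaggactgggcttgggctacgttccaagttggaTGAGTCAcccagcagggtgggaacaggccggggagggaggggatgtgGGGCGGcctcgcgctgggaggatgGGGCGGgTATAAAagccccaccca
Anxa1: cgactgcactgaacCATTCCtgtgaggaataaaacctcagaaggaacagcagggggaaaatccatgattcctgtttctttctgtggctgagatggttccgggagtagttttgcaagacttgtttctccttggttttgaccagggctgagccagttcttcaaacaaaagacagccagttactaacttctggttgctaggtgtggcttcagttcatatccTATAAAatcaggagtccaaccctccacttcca
Anxa5: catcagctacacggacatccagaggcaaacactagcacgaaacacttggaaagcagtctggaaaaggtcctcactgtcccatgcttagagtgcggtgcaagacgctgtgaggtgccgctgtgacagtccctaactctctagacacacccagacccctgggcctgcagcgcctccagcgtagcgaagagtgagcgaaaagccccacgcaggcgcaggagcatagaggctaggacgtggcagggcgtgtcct
Anxa11: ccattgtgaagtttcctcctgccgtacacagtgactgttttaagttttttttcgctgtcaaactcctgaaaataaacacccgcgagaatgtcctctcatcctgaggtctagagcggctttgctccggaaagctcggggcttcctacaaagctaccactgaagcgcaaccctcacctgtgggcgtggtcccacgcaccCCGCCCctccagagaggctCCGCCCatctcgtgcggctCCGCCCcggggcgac

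The Anxa2 window held 1 AP-1 match, 3 GC box matches and 1 TATA box match, the last from 17 to 12 bases before the start. Anxa1 held 1 TEAD match and 1 TATA box match from 32 to 27 bases before the start, Anxa11 held 3 GC box matches and no match to the other 4 motifs, and Anxa5 matched none of the 5 motifs. Across all 32851 windows of the same length in the table, 6.75% held an AP-1 match, 12.6% a TEAD match, 32.7% a GC box match, 33.8% a CAAT box match and 12.4% a TATA box match. Among the other members' windows, both of Anxa7 held GC box matches, and those of Anxa4, Anxa8 and Anxa9 held no match. A match describes these letters only.

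Levels are in FPKM, which divides fragments by gene length and by library size, so they can be set side by side between genes. Nanog itself stood at 119, 122 and 129 FPKM in the R153A libraries, against 241, 259 and 258 FPKM in the WT libraries. Mouse embryonic stem cell markers were abundant in both groups, with Pou5f1, which encodes OCT4, at 518 ± 8.84 FPKM in R153A and 688 ± 16.6 FPKM in WT (SD, n = 3 each here and below). Pearson correlations of log2(FPKM + 1) across genes, which are not independent replicates, were at least 0.995 for libraries of the same group and at most 0.95 for an R153A and a WT library, and no library stood apart within its group. In total, 11817 genes reached 1 FPKM in 3 or more libraries and were tested with limma on log2(FPKM + 1), where a log2 difference is R153A minus WT and understates changes of low genes. Of these, 37.5% were higher and 22.3% lower in R153A at an adjusted p under 0.05. The higher genes thus made up 62.7% of the calls, but 50.7% under median-ratio scaling and 47.4% under quantile normalization. The depth behind the FPKM values is unknown.

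Annexin mRNA was more abundant in R153A cells. The mean was higher in R153A for all 10 genes, and for 9 of them the lowest R153A library lay above the highest WT library. Of all genes tested, 39.8% were separated in that direction, but the 9 include Anxa9, which was not tested. Summed over the 10 genes, annexin mRNA came to 219, 221 and 223 FPKM in the R153A libraries, against 122, 123 and 121 FPKM in the WT libraries, 1.81 times as much on average. Of the 9 annexins that passed the expression filter, limma called 8 higher in R153A, Anxa6 was not called, and their median log2 difference was 0.70. Over all genes tested, 37.5% were called higher and the median was 0.071. The annexins were selected on the same libraries, so these counts and medians, and the separation of the libraries, are no test of the family and nothing is read from them. In bulk RNA, more cells that express a gene and more RNA per cell cannot be told apart.

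**Figure D1:**
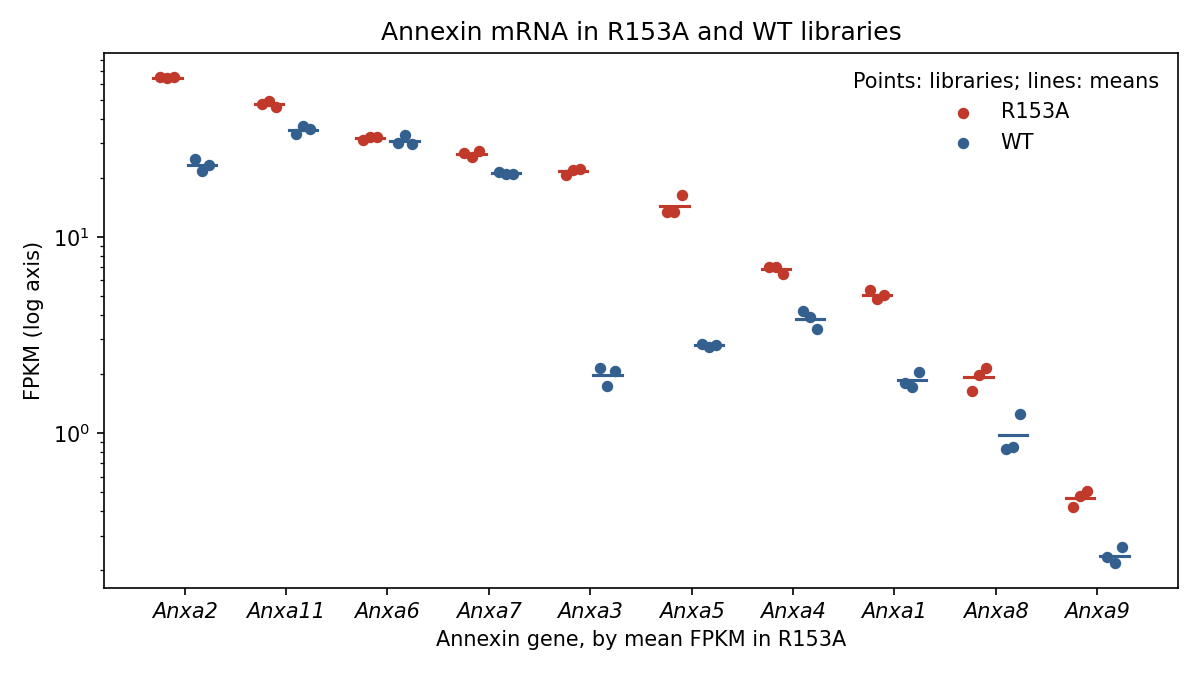
FPKM (log axis) of the 10 annexin genes in each R153A (red, left) and WT (blue, right) library, ordered by mean in R153A, with points for libraries and lines for means. The groups are apart for every gene but Anxa6, and the gap is widest for Anxa3, at 21.6 FPKM on average in R153A and 1.98 FPKM in WT.

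By ratio, the widest difference was that of Anxa3, an annexin first described as an inhibitor of phospholipase A2 and of clotting. It stood at 20.6, 22.0 and 22.1 FPKM in R153A, against 2.15, 1.73 and 2.08 FPKM in WT. All 3 R153A libraries lay far above all 3 WT libraries. The ratio of means was 10.9, with a log2 difference of 2.92 (SE 0.0733), and Anxa3 lay above 87.7% of all symbols by level in R153A and above 59.0% in WT. In WT it was one of the low annexins, and its libraries overlapped those of Anxa1.

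Anxa5, which binds exposed phosphatidylserine and assembles into lattices at membrane wounds, had the next ratio. Its values were 13.4, 13.3 and 16.3 FPKM in R153A, against 2.86, 2.74 and 2.81 FPKM in WT. One R153A library was higher than the other two, and all 3 lay above WT. The ratio was 5.12 and the log2 difference 2.01 (SE 0.0822).

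Anxa2, which forms a complex with S100A10 and binds actin, lipids and plasminogen, was the most abundant annexin in R153A. It stood at 64.9, 64.2 and 65.0 FPKM there, against 24.9, 21.5 and 23.3 FPKM in WT. The R153A libraries differed little from one another, and no WT library came near them. The ratio was 2.78 and the log2 difference 1.44 (SE 0.0568). Anxa2 alone made up 41.9% of the difference in the family sum, and without it the sum was still 156 ± 2.29 FPKM in R153A and 98.8 ± 2.49 FPKM in WT.

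Anxa1, a glucocorticoid-induced protein that dampens inflammation through formyl peptide receptors, stood at 5.36, 4.79 and 5.04 FPKM in R153A, against 1.80, 1.72 and 2.05 FPKM in WT. The groups did not overlap, the ratio was 2.73, close to that of Anxa2, and the log2 difference was 1.09 (SE 0.0781). Anxa4, an annexin of secretory epithelia, had 6.99, 7.02 and 6.49 FPKM in R153A, against 4.18, 3.89 and 3.39 FPKM in WT, a ratio of 1.79 and a log2 difference of 0.70 (SE 0.0790). Its groups were also apart.

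Anxa8 and Anxa9 were the lowest of the 10 in both groups. Anxa8, described as an anticoagulant annexin of endosomes and epithelia, stood at 1.64, 1.98 and 2.15 FPKM in R153A, against 0.830, 0.853 and 1.25 FPKM in WT. The groups were apart, with 1 WT library nearer to R153A than the other two, and the log2 difference was 0.57 (SE 0.105). Anxa8 met the filter through its R153A libraries, so its level there decided that it was tested. Anxa9, whose human protein is known for calcium sites that do not work, had 0.420, 0.480 and 0.506 FPKM in R153A, against 0.232, 0.217 and 0.263 FPKM in WT, and was not tested. An exon of Anxa9 overlaps one of Fam63a on the opposite strand (71 bases in GENCODE M21), and whether strand was used is not given in the sources used here, so reads there cannot be told apart. Fam63a was the more abundant of the pair, at 8.28 ± 0.502 FPKM in R153A and 13.3 ± 0.200 FPKM in WT. Exons of Anxa2, Anxa4 and Anxa11 also overlap antisense genes in GENCODE M21, by at most 98, 75 and 113 bases. On the same strand, where strand could not tell the reads apart, an exon of Anxa3 overlaps one of Gm42603 by 112 bases and an exon of Anxa9 overlaps one of 6330562C20Rik by 94 bases. Neither of these 2 genes has a row in the expression table.

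The 3 annexins with the longest coding sequences had the smallest ratios, between 1.03 and 1.35, against 1.79 to 10.9 for the other 7. They were also among the 4 most abundant in WT. The members were selected on this contrast, and a link of the ratio to length or level was not tested. Anxa11, which takes part in cytokinesis and tethers RNA granules to lysosomes, stood at 47.7, 49.2 and 45.9 FPKM in R153A, against 33.4, 36.6 and 35.6 FPKM in WT. Its groups were apart, with a ratio of 1.35 and a log2 difference of 0.42 (SE 0.0522). Anxa7, known as synexin and described as a promoter of membrane fusion, had 26.6, 25.5 and 27.3 FPKM in R153A, against 21.3, 20.9 and 20.9 FPKM in WT, a ratio of 1.26 and a log2 difference of 0.32 (SE 0.050). Anxa6, an annexin of endosomes that takes part in cholesterol transport, stood at 31.1, 32.2 and 32.4 FPKM in R153A, against 30.0, 32.9 and 29.7 FPKM in WT. These libraries overlapped, with WT replicate 2 above all 3 R153A libraries. The log2 difference was 0.049 (SE 0.0542), and it turned to -0.033 under median-ratio scaling.

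**Figure D2:**
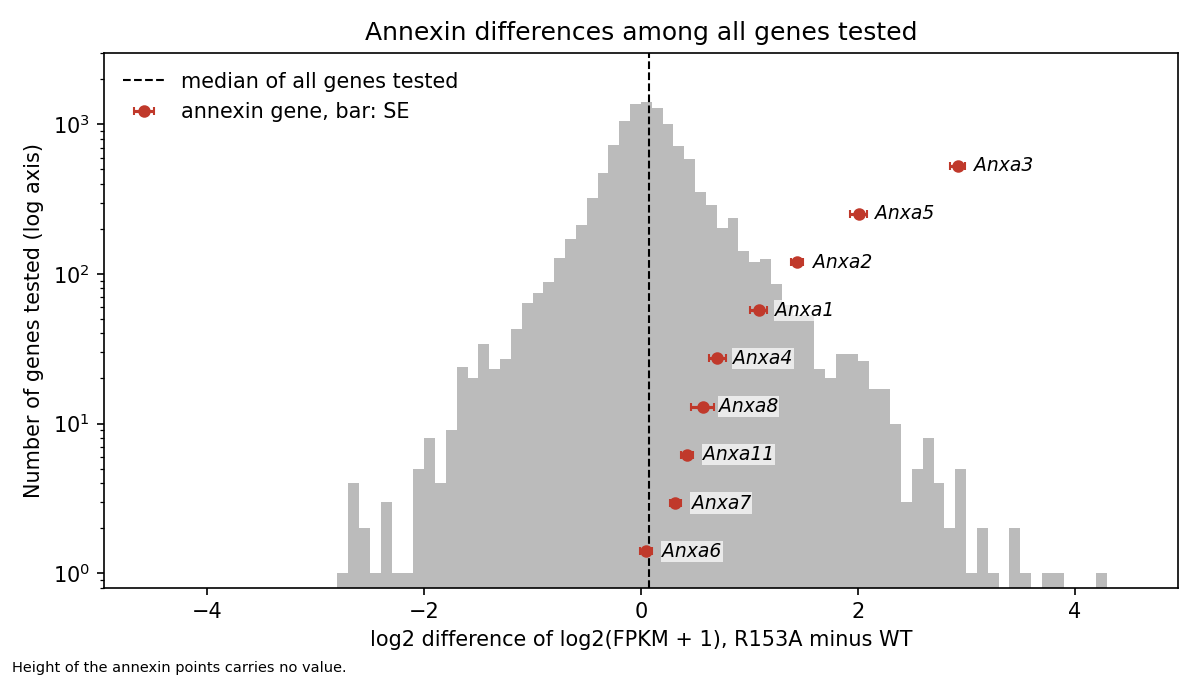
Histogram of the log2 difference (R153A minus WT of log2(FPKM + 1)) of the 11817 genes tested, with counts on a log axis, and the 9 annexins tested as red points with SE bars, whose height carries no value. The annexins run from Anxa6 at 0.049, beside the median of all genes at 0.071, to Anxa3 at 2.92 near the right edge.

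The order of the levels differed between the groups. In R153A it was Anxa2, Anxa11, Anxa6, Anxa7, Anxa3, Anxa5, Anxa4, Anxa1, Anxa8 and Anxa9, and no neighbours in that order had overlapping libraries. In WT it was Anxa11, Anxa6, Anxa2, Anxa7, Anxa4, Anxa5, Anxa3, Anxa1, Anxa8 and Anxa9, and only Anxa3 and Anxa1 overlapped as neighbours. Anxa2 made up 29.3 ± 0.343% of the summed annexin FPKM in R153A and 19.1 ± 1.51% in WT, and Anxa3 9.76 ± 0.305% and 1.63 ± 0.192%. The share of Anxa6 was 14.4 ± 0.212% in R153A and 25.3 ± 1.25% in WT, although its own level was nearly the same. Within groups, the coefficient of variation of a member ran from 0.697% (Anxa2 in R153A) to 24.0% (Anxa8 in WT).

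**Figure D3:**
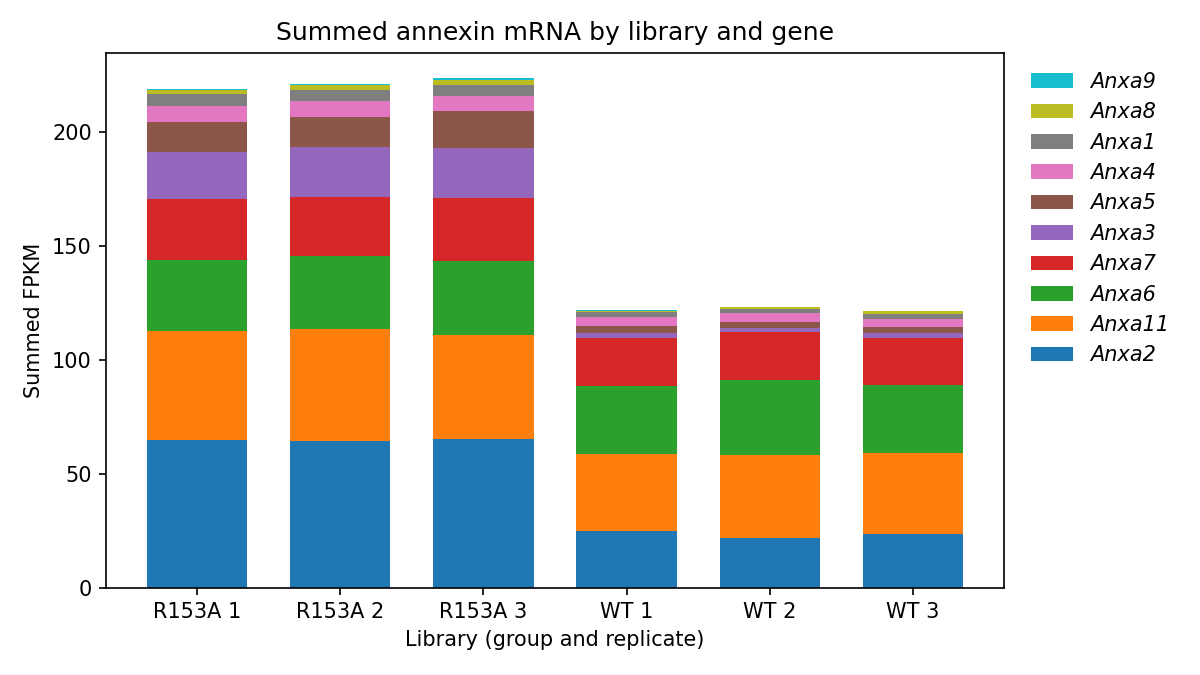
Summed FPKM of the 10 annexin genes in each library, R153A on the left and WT on the right, stacked by gene. The R153A bars reach 219 to 223 FPKM and the WT bars 121 to 123 FPKM, and the segments of Anxa2, Anxa3, Anxa11 and Anxa5 make up 41.9%, 19.8%, 12.5% and 11.7% of the gap.

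The other annexin genes in the table were hardly detected. Anxa10 stood between 0.0181 and 0.0749 FPKM in R153A and between 0.0391 and 0.163 FPKM in WT, with overlapping libraries, and Anxa13 was listed at 0 in all 6.

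S100 and EF-hand proteins that bind annexin heads were the first related group. Of 11 listed genes, 10 were tested, and 6 rose, 2 fell and 2 did not pass, with a median log2 difference of 0.27. The list also holds Ahnak and Pdcd6ip, which encode neither kind of protein and are among the 6 that rose. Over all genes tested 37.5% rose and 22.3% fell, which is the background for the count of each list below. S100a10, the partner of ANXA2, had 76.8, 83.7 and 81.1 FPKM in R153A, against 46.9, 46.2 and 55.3 FPKM in WT, and rose with a log2 difference of 0.70 (SE 0.0691, limma adjusted p = 6.3e-06). S100a11, a partner of ANXA1, rose to 129 ± 8.36 FPKM in R153A, against 72.7 ± 5.47 FPKM in WT (limma adjusted p = 9.4e-07). For both genes every R153A library lay above every WT library. In contrast S100a6, which binds several annexins, fell to 63.6 ± 5.57 FPKM in R153A, against 78.5 ± 5.44 FPKM in WT (limma adjusted p = 0.0031), and its libraries did not overlap either. S100a1 also fell, to 1.88 ± 0.145 FPKM in R153A, against 3.61 ± 0.738 FPKM in WT (limma adjusted p = 3.9e-04). S100a4 did not pass. Of the partners of ANXA7 and ANXA11, the penta-EF-hand gene Sri rose to 4.69 ± 0.126 FPKM in R153A, against 3.23 ± 0.0466 FPKM in WT (limma adjusted p = 2.4e-04). Pdcd6, which encodes ALG-2, stood at 27.8 ± 1.70 FPKM in R153A and 27.2 ± 1.16 FPKM in WT and did not pass. Pdcd6ip, which encodes the ALG-2 partner ALIX, rose to 18.9 ± 0.159 FPKM in R153A, against 15.7 ± 0.484 FPKM in WT (limma adjusted p = 0.0013).

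Genes of plasminogen activation, for which the ANXA2 and S100A10 complex is a cell-surface receptor, were the next group. Of 11 listed, 7 were tested, of which 6 rose and 1 did not pass, where 37.5% of all genes tested rose. One of the 6, Eno1, has near-identical copies in the mouse genome, so its value is uncertain. None fell in the limma fit, at an unadjusted p under 0.05 either, and the median log2 difference was 0.85. This list, like the others, was chosen with earlier results of these data known. It also mixes urokinase and receptors with inhibitors, so the count is no test of plasminogen activation. Plaur, the urokinase receptor, rose to 20.6, 21.3 and 19.5 FPKM in R153A, against 4.32, 5.03 and 4.93 FPKM in WT (log2 difference 1.898, SE 0.0684, limma adjusted p = 2.7e-09). Plau, urokinase itself, rose to 2.295 ± 0.174 FPKM, against 0.253 ± 0.0507 FPKM in WT (limma adjusted p = 1.0e-07), and met the filter only through R153A. Serpine2, an inhibitor of urokinase and thrombin, rose to 13.95 ± 0.842 FPKM in R153A, against 3.01 ± 0.380 FPKM in WT (limma adjusted p = 9.0e-09), and Plgrkt, a plasminogen receptor, to 8.09 ± 0.255 FPKM, against 4.05 ± 0.0458 FPKM (limma adjusted p = 6.9e-07). Plg, plasminogen itself, reached no more than a mean of 0.00612 FPKM in R153A and was listed at 0 in WT.

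Genes of plasma membrane repair moved both ways. Of 29 listed, 24 were tested, and 14 rose, 7 fell and 3 missed the threshold, with a median log2 difference of 0.24. Of the 14, 4 stayed below 1 FPKM in all WT libraries and were tested only through their R153A level, which had to be higher. Ptrf, the caveolar coat protein cavin-1, rose to 10.7 ± 0.607 FPKM in R153A, against 2.52 ± 0.255 FPKM in WT (limma adjusted p = 1.3e-08). Capn2, the catalytic subunit of calpain-2, rose to 12.98 ± 0.689 FPKM in R153A, against 4.20 ± 0.341 FPKM in WT (limma adjusted p = 3.3e-08). The other calpain genes listed fell. Capns1, the small subunit, stood at 138 ± 6.14 FPKM in R153A, against 210 ± 9.90 FPKM in WT (limma adjusted p = 2.4e-06). Capn1 stood at 9.32 ± 0.460 FPKM in R153A, against 15.8 ± 0.897 FPKM in WT (limma adjusted p = 3.1e-06). Chmp4c, an ESCRT-III subunit, fell to 6.56 ± 0.849 FPKM in R153A, against 15.6 ± 1.05 FPKM in WT (limma adjusted p = 6.4e-07). Esyt1, a tether between endoplasmic reticulum and plasma membrane, fell to 9.13 ± 0.157 FPKM in R153A, against 20.7 ± 1.31 FPKM in WT (limma adjusted p = 5.8e-08).

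Genes that make or convert phosphatidylserine, the lipid annexins bind, or move it between leaflets were mostly lower or did not pass. The synthase genes Ptdss1 and Ptdss2 did not pass. Pisd, whose enzyme converts phosphatidylserine to another lipid, is among those that fell. Of 15 listed, 12 were tested, and 1 rose, 6 fell and 5 missed the threshold, with a median log2 difference of -0.14. Xkr8, a scramblase activated in apoptosis, fell to 2.04 ± 0.0483 FPKM in R153A, against 3.51 ± 0.0806 FPKM in WT (limma adjusted p = 3.6e-05). The flippase gene Atp11a fell to 5.98 ± 0.382 FPKM in R153A, against 8.35 ± 0.342 FPKM in WT (limma adjusted p = 2.7e-04). Plscr3, a phospholipid scramblase gene, rose to 6.17 ± 0.537 FPKM, against 3.92 ± 0.410 FPKM in WT (limma adjusted p = 2.4e-04).

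Of the 13 copines and other proteins that bind lipids in the presence of calcium, 9 were tested, and 5 rose, 3 fell and 1 missed the threshold, with a median log2 difference of 0.26. Of the 9, 4 lay under 1 FPKM in every library of one group and were tested only through the other. Cpne2, Cpne8 and Prkcb, named below, were tested only through R153A, which had to be higher, so their rises support nothing. Cpne1 rose to 37.8 ± 0.750 FPKM in R153A, against 18.6 ± 1.07 FPKM in WT (limma adjusted p = 6.5e-08), and Cpne2 to 1.97 ± 0.0459 FPKM, against 0.359 ± 0.0243 FPKM (limma adjusted p = 3.0e-07). Cpne8 rose to 1.54 ± 0.279 FPKM in R153A, against 0.437 ± 0.397 FPKM in WT (limma adjusted p = 9.9e-04). Its WT libraries were uneven, at 0.888, 0.137 and 0.286 FPKM. Prkcb, a calcium-dependent protein kinase C, rose to 1.09 ± 0.00854 FPKM, against 0.186 ± 0.0379 FPKM in WT (limma adjusted p = 5.1e-06). The formyl peptide receptor genes, through which ANXA1 acts, were not tested. Fpr3 had at most 0.0614 FPKM in R153A and 0.145 FPKM in WT, Fpr1 was above 0 in 1 R153A library only, and the other 4 in the table were listed at 0 in all 6 libraries.

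**Figure D4:**
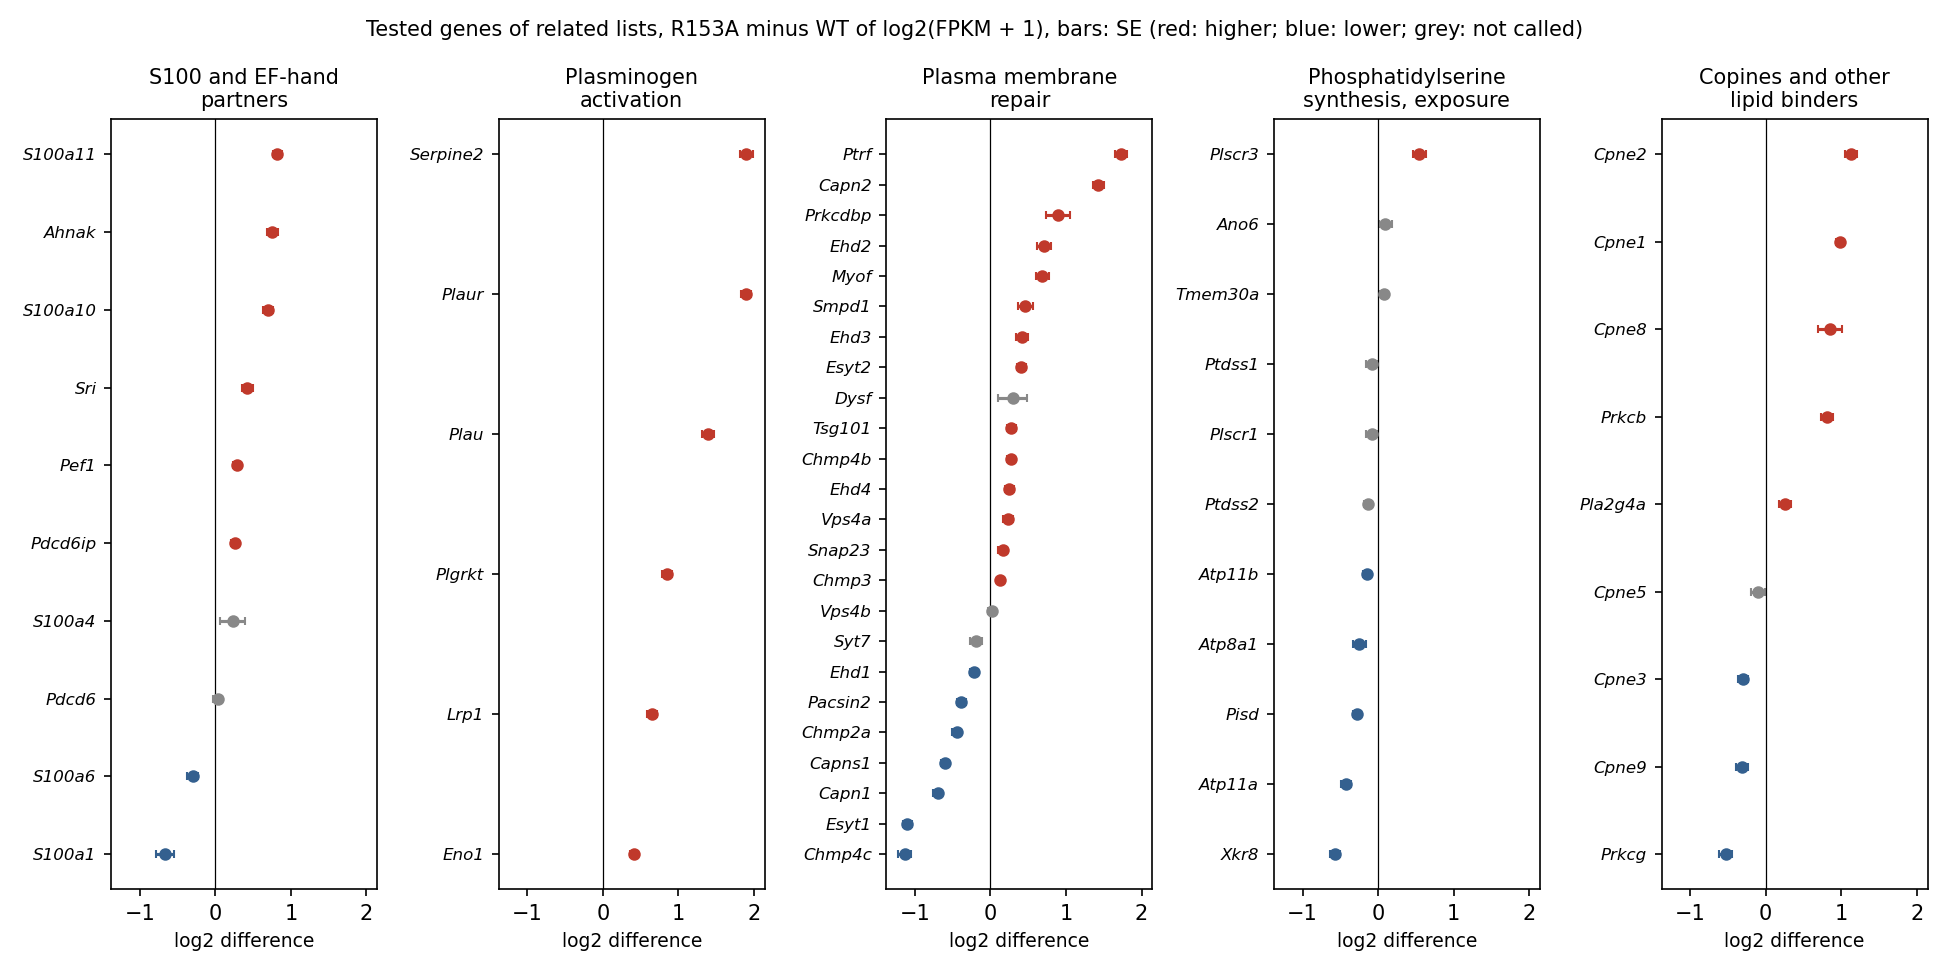
Log2 difference (R153A minus WT of log2(FPKM + 1)) of tested genes in 5 related lists, with SE bars, in red for genes that rose, blue for genes that fell and grey for genes that did not pass. Plasminogen activation genes lie to the right of 0, led by Serpine2 at 1.901 and Plaur at 1.898, while phosphatidylserine genes lie mostly to the left.

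Genes next to the annexins were a set that the listing did not use. The nearest tested gene on each side, in the gene order of GRCm38.p6, gave 20 genes, and 7 rose, 6 fell and 7 missed the threshold, with a median log2 difference of 0.05. That is 13 of 20 against 59.8% of all genes tested. Beside Anxa2, Bnip2 rose to 8.07 ± 0.0994 FPKM in R153A, against 4.33 ± 0.280 FPKM in WT (limma adjusted p = 2.3e-06), while Ice2 on the other side did not pass. Beside Anxa11, Plac9a rose to 40.3 ± 2.11 FPKM in R153A, against 8.52 ± 1.27 FPKM in WT (limma adjusted p = 7.9e-09), and Zcchc24 also rose. Plac9a has a near-identical copy in the mouse genome, so its own value is uncertain. Beside Anxa3, Bmp2k rose and Mrpl1 fell, and neither neighbour of Anxa5, D3Ertd254e and Exosc9, passed. Both neighbours of Anxa6, Tnip1 and Gm2a, fell. Cers2 rose and Fam63a fell beside Anxa9, 2610306M01Rik rose and Gmcl1 fell beside Anxa4, and Zfand5 rose and D030056L22Rik fell beside Anxa1. Bmp2k and 2610306M01Rik met the filter through their R153A libraries, so their level there decided that they were tested, and their rises support nothing. The calls of Zfand5, D030056L22Rik and 2610306M01Rik ended in 4, 3 and 1 of the alternatives.

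Among the 3 annexins with the highest mean, the genes with the most similar profile over the 6 libraries were Igdcc3, Itgb5 and Bmp1 for Anxa2, at root mean square differences of 0.0393, 0.0508 and 0.0523 on the log2 scale. For Anxa11 they were Ctps2, Mtmr4 and Triobp, at 0.0235 to 0.0261, and for Anxa6 they included Grpel1 and Dpp3, at 0.0113 and 0.0115. Each profile was taken relative to its own WT mean, so likeness says nothing of level. Itgb5, for example, stood at 23.5 FPKM in R153A and 8.01 FPKM in WT. Among the annexins themselves, Anxa7 and Anxa11 were the most alike, at 0.104, and Anxa3 and Anxa6 the least, at 2.03. These distances mostly restate the log2 differences between the groups, on which the members were selected, so nothing is read from them.

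Markers of other cell types moved with the annexins in some lists. The 14 fibroblast and feeder markers summed to between 73.4 and 74.8 FPKM in R153A and between 26.0 and 29.0 FPKM in WT, and 5 of the 6 tested rose and none fell. Tagln, the smooth muscle protein transgelin, led that sum at 44.3 ± 0.402 FPKM in R153A and 6.20 ± 1.19 FPKM in WT, whereas the fibroblast collagen gene Col1a1 stood at 2.82 ± 0.102 and 1.17 ± 0.258 FPKM, and Dcn and Lum had means under 0.25 FPKM in both groups. The 11 trophectoderm markers summed to between 433 and 469 FPKM in R153A and between 112 and 125 FPKM in WT, and 6 of the 9 tested rose and 2 fell. The keratin gene Krt8 led them at 214 ± 8.89 and 22.7 ± 3.55 FPKM, with Krt18 at 143 ± 9.11 and 18.8 ± 1.39 FPKM. The rise in that sum was that of the keratin genes Krt8, Krt18, Krt19 and Krt7. Plet1 and Cdx2 also rose, and Cdx2 was tested only through R153A. Tfap2c fell to 19.8 ± 1.10 FPKM in R153A, against 55.4 ± 3.24 FPKM in WT. Eomes fell to 2.42 ± 0.353 FPKM in R153A, against 3.38 ± 0.581 FPKM in WT. Elf5 had a mean of 0.00617 FPKM in R153A and 0.0662 FPKM in WT. The 14 endoderm markers summed to between 111 and 116 FPKM in R153A and between 73.8 and 81.5 FPKM in WT, mostly Sparc, and 3 of the 6 tested rose and 1 fell, with Gata6 at 0.142 ± 0.0531 and 0.143 ± 0.0631 FPKM and Sox17 at 0.0141 ± 0.0126 and 0.0604 ± 0.0141 FPKM. The 9 epiblast and streak markers summed to between 211 and 229 FPKM in R153A and between 106 and 113 FPKM in WT, and 7 of the 8 tested rose and 1 fell. Of the 7, 4 stayed below 1 FPKM in all WT libraries and were tested only through R153A, as were 2 of the fibroblast and feeder markers and 1 of the trophectoderm markers that rose. The 1 endoderm marker that fell, Sox7, was tested only through WT. It stood at 0.278 ± 0.0915 FPKM in R153A and 2.18 ± 0.473 FPKM in WT. Lamb1 and Col4a1 of that list rose to 20.6 ± 0.333 and 7.32 ± 0.487 FPKM in R153A, against 8.87 ± 0.488 and 2.63 ± 0.277 FPKM in WT. Of the epiblast and streak markers, Dnmt3b rose to 123 ± 6.16 FPKM in R153A, against 51.2 ± 2.89 FPKM in WT. Otx2 fell to 31.5 ± 0.532 FPKM, against 48.2 ± 0.896 FPKM. The 9 endothelial and blood markers summed to between 12.6 and 12.9 FPKM in R153A and between 21.9 and 22.6 FPKM in WT, and both of those tested fell. The drop in that sum was that of Pecam1, at 9.68 ± 0.22 FPKM in R153A and 19.3 ± 0.29 FPKM in WT. Gata1, the other that fell, met the filter through its WT libraries. Some markers of this list that were not tested were higher in R153A. The 8 embryonic stem cell markers summed to between 2293 and 2398 FPKM in R153A and between 4073 and 4818 FPKM in WT, and 1 rose, 5 fell and 2 missed the threshold. Dppa5a made up most of the drop in that sum, at 936 ± 20.5 FPKM in R153A and 2575 ± 364 FPKM in WT. The 1 that rose was Lin28a, at 99.0 ± 1.25 FPKM in R153A and 43.4 ± 2.90 FPKM in WT. No marker in these lists was listed at 0 in all 6 libraries. Dcn, Lum, Elf5, Gata6 and Sox17 are low markers picked after their values were seen, and they do not stand for their lists. The part of such cells in the annexin levels was not tested.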

How the data were processed

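Polyadenylated RNA of 3 R153A and 3 WT libraries was measured. The authors deposited 1 table of FPKM values, 1 per gene symbol and library. The submitters' processing notes name edgeR 3.26.8, HTSeq 0.11.2, Bowtie2 2.3.4.3, SAMtools 1.9 and the mm9 build, without what each did. For the FPKM step, the annotation, the use of strand and any filter, the tool or setting is not given in the sources used here. Low values showed no per-read step, so no counts were recovered and no counting intervals are given.

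Values were used as deposited. R153A was set against WT with limma 3.58.1 (R 4.3.3, trend on the mean) on log2(FPKM + 1), for genes of at least 1 FPKM in at least 3 libraries, with 2-sided p-values adjusted by Benjamini-Hochberg over the 11817 genes and called under 0.05. The fit was tested on simulated data. Ratios of means are given where every library reached 0.1 FPKM. Alternatives left out each library in turn, used the replicate number as a block, dropped the trend, scaled by quantiles, by median ratios or to TPM, set the filter at 5 FPKM or to none, or set the pseudocount at 0.1 or 0.5. The members, the 6 related lists, the 6 marker lists and the tests were chosen with earlier results of these data known. The rule for named genes took Nanog, all annexins, 6 fixed partners, up to 4 genes past the threshold of each other list by size of change, the top markers, the neighbours and the 3 most similar profiles of 3 members. Fbln1, Sp5 and Fgf8 are top markers by that rule whose values are not given above. Eno1, Plg, Ice2, D3Ertd254e, Exosc9, Dcn, Lum, Elf5, Gata6, Sox17 and the profiles of Anxa3 and Anxa5 were named after their values were seen. So were S100a1, S100a4, Ahnak, Capns1, Capn1, Ptdss1, Ptdss2, Pisd, Krt7, Krt19, Plet1, Cdx2, Tfap2c and Eomes. Protein features were not analysed here. Some genes are counted in the lists but not reported by name or drawn here. Coding lengths and exon overlaps came from GENCODE M21, and promoters and gene order from RefSeq on GRCm38.p6. Python 3.11.15 with matplotlib 3.10.9 drew the plots.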

Additional observations from a re-analysis of the deposited data

How the results depend on the processing

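The annexins were selected on the values all alternatives use, so their counts across settings describe the settings only and support nothing. The count of annexins called higher was 8 in 13 of the 15 alternatives, 9 with no filter on low values, where Anxa9 was also tested, and 6 with a filter of 5 FPKM, where 7 were tested. The log2 difference of Anxa3 ranged from 2.79 to 3.38 and that of Anxa8, the lowest tested, from 0.33 to 0.93. Anxa6 turned to -0.033 under median-ratio scaling, and the similar profiles of Grpel1 and Dpp3 turned too, to -0.022 and -0.0287. Pdcd6, not past the threshold, turned to -0.0505 under median-ratio scaling and -0.0159 under quantile normalization, and leaving out 1 library gave -0.00983 (without R153A replicate 2) to 0.075. The cause of these turns was not tested. With a filter of 5 FPKM fewer genes were tested, and counts fell to 2901 higher genes in all, 4 higher neighbours, 1 lower S100 or EF-hand partner, 9 higher repair genes, 3 lower phosphatidylserine genes, and 1 higher and 1 lower copine or related gene. With no filter more genes were tested, and 3 phosphatidylserine genes and 8 copines or related genes were higher and 1 formyl peptide receptor lower. Leaving out 1 library gave 1 to 2 higher phosphatidylserine genes, with 2 without WT replicate 2.

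Libraries of the same replicate number did not deviate together (correlations of -0.05, -0.01 and 0.06 over genes). No pairing by number was seen in these values, but whether such libraries were prepared together is not known. With the replicate block, 4316 genes were higher and 2560 lower, and 8 annexins were higher. Depth is unknown, so how firmly levels near 0, such as those of Anxa9 and Anxa10, are known cannot be given.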

Other observations

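For the annexins that differed most, the nearest profiles were bound to be those of genes with a similarly large difference. Each profile was taken relative to its own WT mean, so this likeness is fixed by the measure and nothing is read from it. For Anxa3 they were Arl4c, Igf2 and Krt18, at root mean square differences of 0.0866, 0.103 and 0.124 on the log2 scale over the 6 libraries, and Igf2 stood at 64.1 FPKM in R153A and 7.62 FPKM in WT. For Anxa5 they were Cntfr, Pid1 and Id1, at 0.0558, 0.0648 and 0.0735, and Id1 stood at 73.0 FPKM in R153A and 17.1 FPKM in WT.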
